A study of Homo sapiens with 6 samples.

Results

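Members of the BCL2 family whose messages are spliced into alternative forms were examined in PLC/PRF/5, an established human line of hepatocellular carcinoma, after knockdown of the splicing factor SLU7. The members were taken by gene symbol: 3 guardians of cell survival (BCL2, BCL2L1 and MCL1), 2 effectors of cell death (BAK1 and BOK) and 5 BH3-only genes (BCL2L11, BID, BAD, BMF and BIK). The 10 genes are part of the 60607 genes in the deposited data and hold 89 of the 234326 transcripts. The cells had been transfected with siRNAs against SLU7 (siSlu7, 3 libraries) or with an irrelevant siRNA (siGL2, 3 libraries), and polyA RNA was taken after 48 h. No other agent or genotype is named in the labels. They say that each transfection was done in triplicate but not that the triplicates were separate experiments, so p-values measure the spread between these libraries, which may be technical.

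BCL2 family proteins decide at the outer mitochondrial membrane whether a cell enters apoptosis. Guardians bind and hold the effectors, BH3-only proteins occupy the guardians or activate the effectors, and freed effectors form pores that release cytochrome c. Several family genes make splice forms of opposite action. BCL2L1 gives the protective Bcl-xL or, through an upstream 5′ splice site in its long coding exon, the death-promoting Bcl-xS. MCL1 gives the protective Mcl-1L or, when its middle exon is skipped, the death-promoting Mcl-1S. In mice, hepatocytes need both Bcl-xL and Mcl-1 to survive. SLU7 acts at the second step of splicing, in the choice of the 3′ splice site.

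The junctions that separate these forms are shown because every statement on Bcl-x and Mcl-1 forms rests on which transcripts carry them. They were read from the GRCh38 genome with the GENCODE 29 annotation, both genes on the minus strand. In the first 5 lines, 20 bases before the junction are in lower case and 20 bases after it are in capitals. In the last line, the capitals are the end of the first MCL1 intron, which runs on into the middle exon (lower case) in transcript MCL1-203. In GENCODE 29 this transcript starts inside that intron and holds 286 of its 351 bases.
Bcl-xL junction: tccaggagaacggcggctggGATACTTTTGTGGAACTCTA
Bcl-xS junction: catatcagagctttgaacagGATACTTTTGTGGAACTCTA
Mcl-1S junction: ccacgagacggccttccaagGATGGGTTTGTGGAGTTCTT
Mcl-1L first junction: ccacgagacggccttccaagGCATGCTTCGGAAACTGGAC
Mcl-1L second junction: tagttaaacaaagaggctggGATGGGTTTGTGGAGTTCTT
MCL1-203 first intron to middle exon: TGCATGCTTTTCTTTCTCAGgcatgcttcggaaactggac
The Bcl-x junctions join the same last coding exon, which starts at chromosome 20 position 31666086. They leave the long exon at positions 31721655 (Bcl-xL) and 31721844 (Bcl-xS), 189 bases apart. The middle exon of MCL1 lies at chr1:150578244-150578491 and is 248 bases long. It is flanked by introns of 351 and 752 bases. The coding sequence is 702 bases in the Bcl-xL transcript BCL2L1-201 and 513 bases in the Bcl-xS transcript BCL2L1-202, stop codon included. In MCL1 it is 1053 bases in the Mcl-1L transcript MCL1-202 and 816 bases in the Mcl-1S transcript MCL1-201.

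The siSlu7 libraries held 5191452 to 6315740 estimated counts, and the siGL2 libraries 7736584 to 8693977. Mitochondrial ribosomal RNA took 29.9 to 35.3% of the siSlu7 counts and 16.8 to 24.1% of the siGL2 counts, and 7SL RNA took 7.69 to 10.1% in siSlu7 libraries and 14.8 to 22% in siGL2 libraries. Their part in the results below was not tested beyond a fit without them. SLU7 itself had 9.23, 8.11 and 10.5 CPM (counts scaled to library size with TMM factors) in siSlu7 cells and 20.8, 17.1 and 18.3 CPM in siGL2 cells. The groups did not overlap, and the log2 fold change was -1.02 ± 0.18 (SE; edgeR adjusted p = 0.0139). In TPM, the unit that also divides by transcript length, the SLU7 difference was -0.06 on the log2(TPM + 1) scale, and the edgeR call was lost with offsets for transcript length (-0.58, adjusted p = 0.145). It was also lost with the replicate number as a block (-1.02, adjusted p = 0.0653), without siSlu7 replicate 1 (-1.02, adjusted p = 0.0555) and without siSlu7 replicate 2 (-0.93, adjusted p = 0.0806). All 12 hepatocyte markers were expressed and 1 of them, TTR, rose. Of the 6 immune, 5 fibroblast and 4 endothelial markers, LUM and KDR were at 0 in every library, and CD3E, CD79A and VWF had at most 2 counts in any library. Others were expressed. LYZ averaged 30.1 CPM in siSlu7 cells and 37.7 CPM in siGL2 cells, CD68 averaged 18.8 and 21.2 CPM, and PECAM1 had 16 to 29 counts a library. PTPRC rose (8 to 12 counts in siSlu7 libraries and 3 to 4 in siGL2 libraries) and PDGFRB fell. TTR and PTPRC met the filter on low counts only with the siSlu7 libraries, so their rises add no support. The libraries siGL2 replicate 1 and siSlu7 replicate 3 deviated from their own groups in the same direction (r = 0.44 across genes, which are not independent). So did siGL2 replicate 3 and siSlu7 replicate 1 (r = 0.38), and deviations from the mean of a group of 3 are tied to each other. Results that turn on siGL2 replicate 1 or siSlu7 replicate 3 are given with and without them.

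At the level of whole genes, BMF was the member that passed the test, and it was lower after SLU7 knockdown. BMF is a BH3-only gene whose protein is held on the cytoskeleton through dynein light chain and moves to mitochondria on loss of attachment. Of the 10 members 8 had enough counts to be tested, and 1 of 8 passed. Of the 17097 genes tested, 13.8% passed in either direction, 5.93% higher and 7.87% lower, so the family's count is no larger than the share over all genes. The groups did not overlap in CPM for BMF among those 8 members, against 36.6% of all genes tested. In a bulk sample, fewer cells that express a gene and less of its RNA per cell cannot be told apart.

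**Figure D1:**
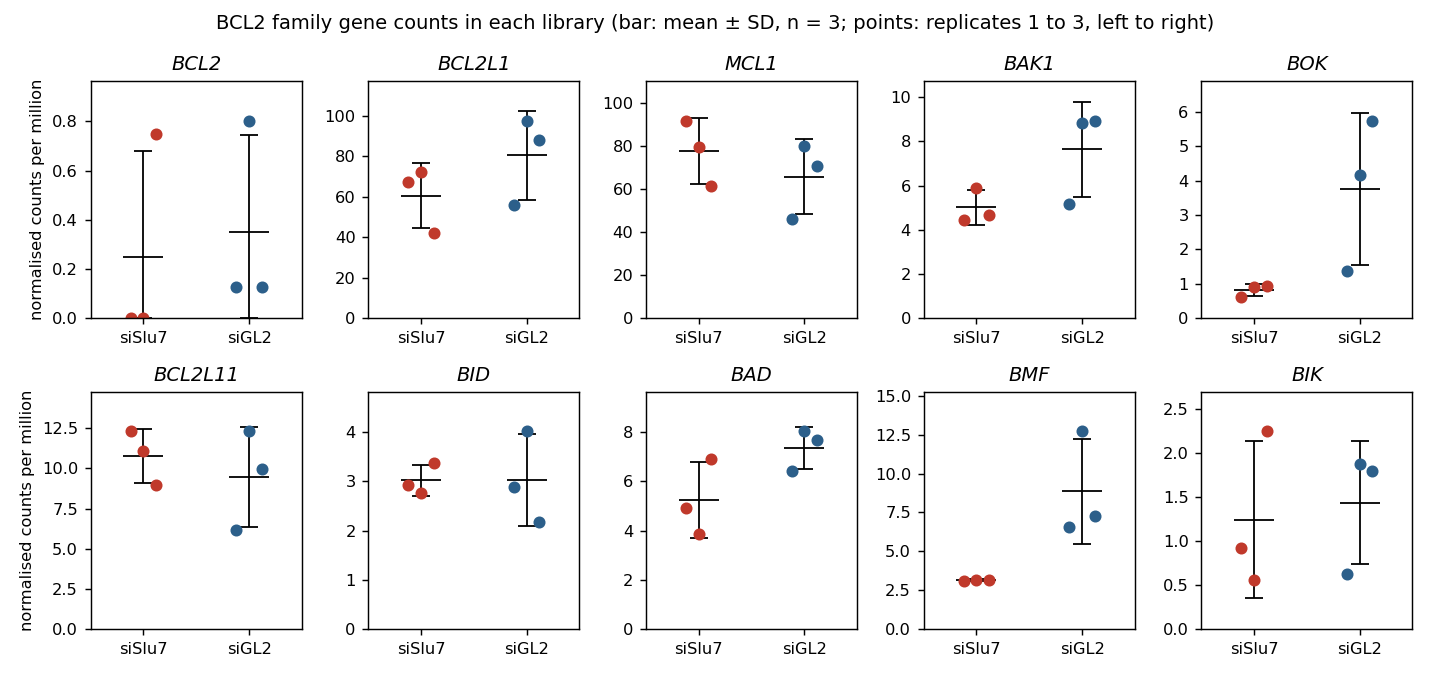
Normalised CPM of the 10 genes, with siSlu7 (red) left of siGL2 (blue) in each panel, points for replicates 1 to 3 from left to right, and bars for the mean ± SD (n = 3; bars stop at 0). The 3 siSlu7 points of BMF lie between 3.08 and 3.18 CPM, under all 3 siGL2 points, and those of BOK lie under 1 CPM; the groups overlap in the other 8 panels.

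Among the guardians, MCL1 (ENSG00000143384, chr1:150574551-150579738 on the minus strand, GENCODE 29) had 91.9, 79.5 and 61.5 CPM in siSlu7 cells and 46.2, 79.9 and 70.9 CPM in siGL2 cells. The lowest value was that of siGL2 replicate 1, and the groups overlapped. The log2 fold change was 0.24 ± 0.23 (SE; 95% interval -0.28 to 0.76), with an edgeR adjusted p of 0.510. BCL2L1 (ENSG00000171552, chr20:31664452-31723989 on the minus strand, GENCODE 29) had 67.4, 72.3 and 42.2 CPM in siSlu7 cells and 55.9, 97.8 and 88.3 CPM in siGL2 cells. Here siSlu7 replicate 3 and siGL2 replicate 1 were the lowest of their groups, which overlapped. The log2 fold change was -0.41 ± 0.26 (SE; 95% interval -1.0 to 0.18), with an edgeR adjusted p of 0.311. On log2(TPM + 1) the BCL2L1 difference was 0.08. BCL2, the founding guardian, was close to absent, with 0, 0 and 4 counts in siSlu7 libraries and 1, 6 and 1 counts in siGL2 libraries. They fell on BCL2-201, BCL2-202, BCL2-203 and BCL2-205, and BCL2 did not pass the filter on low counts.

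Both effectors were expressed at a low level. BAK1, a pore former of the mitochondrial membrane with processed pseudogenes that can share its reads, had 4.46, 5.90 and 4.67 CPM in siSlu7 cells and 5.15, 8.84 and 8.95 CPM in siGL2 cells. The siGL2 replicate 1 value lay inside the siSlu7 range. The log2 fold change was -0.61 ± 0.28 (SE; 95% interval -1.25 to 0.03; edgeR adjusted p = 0.175). BOK, an effector known to act without the guardians' control, had 4, 5 and 5 counts in siSlu7 libraries and 11, 31 and 45 counts in siGL2 libraries. These correspond to 0.616, 0.922 and 0.935 CPM in siSlu7 cells and 1.38, 4.15 and 5.75 CPM in siGL2 cells, with no overlap. BOK missed the filter on low counts in the main test. It passed in a fit of every gene with a count, where 8.2% of genes passed (log2 fold change -2.20 ± 0.51 SE, edgeR adjusted p = 0.00227). With a fixed minimum of 10 counts in 3 libraries, where 13.7% of genes passed, it had -2.17 (edgeR adjusted p = 0.0400), but BOK met that minimum only through the siGL2 libraries, so this value adds no support. Without siSlu7 replicate 1, 2 or 3 BOK had adjusted p of 0.129, 0.129 and 0.0960, with log2 fold changes of -2.0 to -2.28.

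BMF (ENSG00000104081, chr15:40087890-40108892 on the minus strand, GENCODE 29) had 20, 17 and 17 counts in siSlu7 libraries and 52, 95 and 57 counts in siGL2 libraries. Scaled to depth, these were 3.08, 3.13 and 3.18 CPM in siSlu7 cells and 6.53, 12.7 and 7.28 CPM in siGL2 cells. The knockdown values were nearly equal, and every control value was more than their highest. Means were 3.13 ± 0.05 CPM in siSlu7 cells and 8.84 ± 3.38 CPM in siGL2 cells (SD, n = 3 each). The log2 fold change was -1.49 ± 0.32 (SE; 95% interval -2.21 to -0.78), a fold of 0.356 for siSlu7 over siGL2, with an edgeR adjusted p of 0.0205. Its direction was the same in all 17 alternative fits, and 9 of them kept the call. Leaving out siSlu7 replicate 1, 2 or 3 gave adjusted p of 0.0740, 0.0921 and 0.0575 with log2 fold changes of -1.48, -1.49 and -1.50, in fits that called 331, 0 and 1027 of all genes, against 2358 with every library. Leaving out siGL2 replicate 2 or 3 gave 0.0625 (-1.15) and 0.050 (-1.64), the last being just over the threshold before rounding, in fits that called 449 and 629 genes. Without siGL2 replicate 1 it was 0.00585.

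The other BH3-only genes did not pass the test. BCL2L11, which encodes the activator BIM, had 12.3, 11.1 and 8.97 CPM in siSlu7 cells and 6.15, 12.3 and 9.97 CPM in siGL2 cells, a log2 fold change of 0.19 ± 0.27 (SE; edgeR adjusted p = 0.673). BID, whose protein is cleaved by caspase-8 to its active form, averaged 3.02 ± 0.31 CPM in siSlu7 cells and 3.03 ± 0.93 CPM in siGL2 cells (SD, n = 3 each), and its log2 fold change had a 95% interval of -0.75 to 0.75. Neither gene separated the groups. BAD, a sensitizer held inactive by phosphorylation, had 4.92, 3.87 and 6.92 CPM in siSlu7 cells and 6.40, 8.04 and 7.67 CPM in siGL2 cells. Only siSlu7 replicate 3 reached the range of the controls, and the log2 fold change was -0.49 ± 0.27 (SE; edgeR adjusted p = 0.236), or 0.08 with offsets for GC content and length. BIK, a BH3-only protein of the endoplasmic reticulum, had 3 to 12 counts in siSlu7 libraries and 5 to 14 counts in siGL2 libraries, a log2 fold change of -0.21 ± 0.61 (SE; edgeR adjusted p = 0.840).

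**Figure D2:**
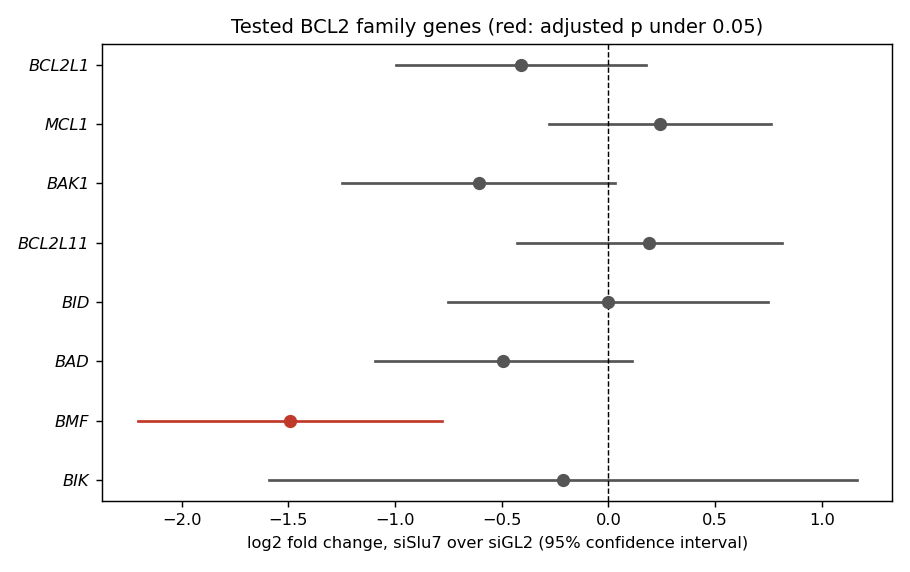
Log2 fold change of gene counts, siSlu7 over siGL2, with the 95% confidence interval from edgeR, for the 8 members tested. Only the interval of BMF (red, -2.21 to -0.78) lies wholly under 0; that of BIK is the widest, and that of BAK1 ends at 0.03.

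With siGL2 replicate 1 left out, BMF, BOK and BAK1 passed, 3 of 9 members tested, in a fit where 25.6% of all genes passed. With siSlu7 replicate 3 also left out, 29.8% of all genes passed, and so did BMF, BOK, BAK1, BAD and BCL2L1, each lower in siSlu7 cells. The log2 fold changes were then -1.68 for BMF, -2.68 for BOK, -0.79 for BAK1, -0.82 for BAD and -0.41 for BCL2L1, with edgeR adjusted p of 0.00504, 0.00220, 0.0437, 0.0426 and 0.0363. MCL1 remained without a call (0.19, adjusted p = 0.327). These fits hold 2 or 3 libraries a group, chosen after the libraries had been seen to stand apart. BOK met the filter on low counts in them only through the siGL2 libraries, so its values in these fits add no support.

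Levels can be compared between genes only per length, as TPM summed over each gene's transcripts. In both groups MCL1 and BCL2L1 stood above the other members. MCL1 averaged 21.6 ± 5.26 TPM in siSlu7 cells and 13.3 ± 3.78 TPM in siGL2 cells, and BCL2L1 averaged 17.6 ± 5.79 TPM in siSlu7 cells and 16.3 ± 4.45 TPM in siGL2 cells (SD, n = 3 each). The pair overlapped within each group, so their order was not resolved, and each lay above every other member in every library. BAD averaged 6.11 TPM in siSlu7 cells and 6.29 TPM in siGL2 cells, BCL2L11 6.15 TPM in siSlu7 cells and 4.35 TPM in siGL2 cells, and BMF 3.85 TPM in siSlu7 cells and 3.93 TPM in siGL2 cells. BAD and BCL2L11 overlapped in both groups. BID, BAK1, BIK and BOK averaged 0.668 to 1.63 TPM, except that a 183-base BOK transcript with 2 counts raised BOK to 4.19 TPM in siSlu7 replicate 3. BCL2 was lowest, at or under 0.0893 TPM in every library. Over all tested genes the median difference was -0.01 in log2 CPM but 0.35 in log2(TPM + 1), and differences in TPM are read against that shift. Of the genes called, 57% were lower in siSlu7 cells in the main test, 44.4% with length offsets and 4.79% on log2(TPM + 1).

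For BMF the unit mattered. Its summed TPM were 3.52, 2.96 and 5.08 in siSlu7 cells and 3.42, 3.48 and 4.89 in siGL2 cells, and the groups overlapped (difference -0.03 in log2(TPM + 1), limma adjusted p = 0.931). The coding transcripts alone gave 0.938, 1.10 and 0.673 TPM in siSlu7 cells and 2.22, 2.53 and 2.57 TPM in siGL2 cells. These did not overlap, with means of 0.903 ± 0.214 TPM in siSlu7 cells and 2.44 ± 0.190 TPM in siGL2 cells (SD, n = 3 each). The rest of the TPM came from BMF-205, a processed transcript of 450 bases without a coding frame. It had 8.2, 5.1 and 11.5 estimated counts in siSlu7 libraries and 6.5, 6.2 and 12 in siGL2 libraries, which its short length turned into 2.58, 1.86 and 4.4 TPM in siSlu7 cells and 1.2, 0.947 and 2.33 TPM in siGL2 cells. The main coding transcript BMF-202, of 4545 bases, had 9.2, 7.7 and 4.3 estimated counts in siSlu7 libraries and 30.4, 69.9 and 24.9 in siGL2 libraries. Its groups did not overlap, and its log2 fold change was -2.28 ± 0.60 (SE; unadjusted p = 0.00845, edgeR adjusted p = 0.168). BMF-202 met the filter on low counts only with the siGL2 libraries, so this fold change adds no support. The coding share of BMF counts was 61.3, 70.1 and 34.3% in siSlu7 libraries and 87.9, 93.5 and 78.9% in siGL2 libraries, with no overlap (two-sided exact permutation p = 0.1, the smallest 3 against 3 can give). Such a fall was common, as the coding share was lower without overlap in 20.7% of 8604 tested genes. These had at least 20 estimated counts on coding and on other transcripts. With offsets for transcript length, BMF's log2 fold change was -0.58 (edgeR adjusted p = 0.280). With offsets for GC content and length it was -1.06 (edgeR adjusted p = 0.0410). BMF has a GC content of 61.2%, and the median of tested genes is 49.1%.

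No transcript passed the edgeR test, in the family or elsewhere (0% of 43128 tested, 6956 of them at an unadjusted p under 0.05). Of the members' transcripts 23 were tested, and 4 had an unadjusted p under 0.05: BMF-202, MCL1-206, BCL2L1-201 and BCL2L11-221. The last of these met the filter on low counts only through the siSlu7 libraries. BMF-202 met it only with the siGL2 libraries, as 4.3 estimated counts in siSlu7 replicate 3 fell short. Values of BMF-202 and BCL2L11-221, by edgeR or DESeq2, therefore add no support. DESeq2 called 6.52% of transcripts, among them BMF-202 (log2 fold change -2.33, adjusted p = 0.0409) and MCL1-206 (0.75, adjusted p = 0.0444).

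MCL1 counts lay more on transcripts annotated with a retained intron after knockdown. These made up 59.3, 57.4 and 68.7% of MCL1 counts in siSlu7 libraries and 44.4, 29 and 38.5% in siGL2 libraries. The lowest knockdown library was above the highest control library. Means were 61.8 ± 6.03% in siSlu7 cells and 37.3 ± 7.77% in siGL2 cells (SD, n = 3 each), a difference of 24.5 percentage points (two-sided exact permutation p = 0.1, the smallest possible). Such a shift was common: among 5842 tested genes with at least 20 estimated counts on retained-intron and on other transcripts, the share was higher without overlap in 25.4% and lower in 3.08%. Only 3 members could be compared in this way, and MCL1 was 1 of 3 with no overlap. Without siGL2 replicate 1 and siSlu7 replicate 3 the difference was 24.6 points. By TPM it was 12.9 points (31.3 ± 4.24% in siSlu7 cells and 18.5 ± 4.82% in siGL2 cells), again without overlap. Reads that fit both retained-intron and coding transcripts were divided by the quantifier, and the error of that split did not enter this comparison.

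Most of these counts were on MCL1-206, which had 251.8, 196.1 and 148.3 estimated counts in siSlu7 libraries and 153.2, 126.8 and 153.4 in siGL2 libraries. In TPM these were 5.57, 4.94 and 3.90 in siSlu7 cells and 2.0, 1.42 and 2.21 in siGL2 cells, with no overlap, and the log2 fold change of its counts was 0.76 ± 0.22 (SE; edgeR adjusted p = 0.194). MCL1-203, which is 4550 bases in the deposited files but was read from a shorter GENCODE 29 version of 1099 bases that holds part of the first intron, had 102.0, 50.5 and 77.9 estimated counts in siSlu7 libraries and 10.3, 46.4 and 61.1 in siGL2 libraries. Its lowest value was that of siGL2 replicate 1, its TPM did not overlap (1.27 to 2.24 in siSlu7 cells and 0.134 to 0.876 in siGL2 cells), and its log2 fold change was 1.26 ± 0.65 (SE; edgeR adjusted p = 0.407). Before scaling to depth, the estimated counts of MCL1-206 and of MCL1-203 overlapped between the groups. Their TPM values carry the median shift of 0.35 in log2(TPM + 1) toward siSlu7 over all tested genes. Which intron MCL1-206 retains was not read here, as it has no entry in GENCODE 29. The test of transcript class usage within the gene, which 2.26% of genes passed, gave MCL1 an unadjusted p of 0.0358 and an adjusted p of 0.312 (edgeR, Simes). The same test by limma on voom values, which 8.7% of genes passed, gave 0.0490.

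**Figure D3:**
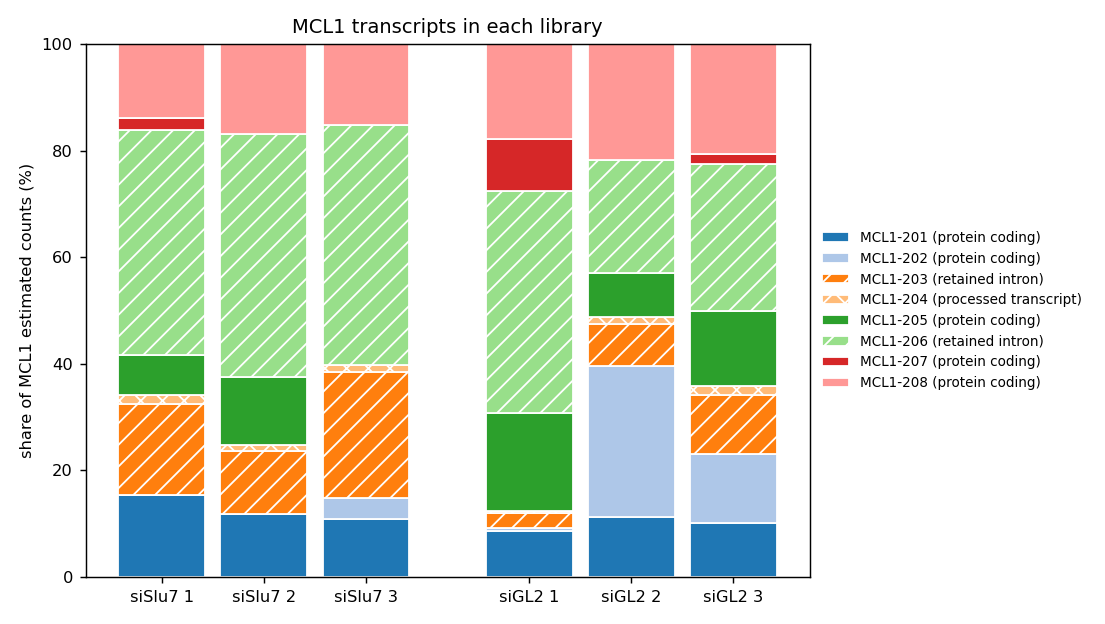
Share of MCL1 estimated counts (%, stacked) on each transcript in each library, siSlu7 replicates left of siGL2 replicates; hatched bars with slanted lines are retained-intron transcripts. The hatched part is 57.4 to 68.7% in siSlu7 libraries and 29 to 44.4% in siGL2 libraries, and MCL1-202 is sizeable in siGL2 replicates 2 and 3.

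Among coding MCL1 transcripts the balance lay toward the skipped form after knockdown. MCL1-201, the Mcl-1S transcript, had 91.8, 50.9 and 35.8 estimated counts in siSlu7 libraries and 31.7, 67.0 and 56.3 in siGL2 libraries. MCL1-202, which carries both Mcl-1L junctions, had 0, 0 and 13.1 estimated counts in siSlu7 libraries and 2.0, 169.7 and 72.4 in siGL2 libraries. MCL1-205, which also includes the middle exon, had 44.7, 54.7 and 0 estimated counts in siSlu7 libraries and 67.5, 48.6 and 78.9 in siGL2 libraries. Its coding sequence is 594 bases, against 1053 in MCL1-202, so it does not encode full-length Mcl-1L. The share below therefore compares skipping with inclusion of the middle exon (the long form below), not Mcl-1S with Mcl-1L. None of MCL1-201, MCL1-202 and MCL1-205 separated the groups by count alone: MCL1-202 is nearly absent from siGL2 replicate 1 and present in siSlu7 replicate 3. The skipped form as a share of the 3 transcripts was 67.2, 48.2 and 73.3% in siSlu7 libraries and 31.3, 23.5 and 27.1% in siGL2 libraries, with no overlap. The difference was 35.6 percentage points (two-sided exact permutation p = 0.1, the smallest possible), and 32.4 points without siGL2 replicate 1 and siSlu7 replicate 3.

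This share covers part of the coding counts. MCL1-208 had 83.3, 72.5 and 50 estimated counts in siSlu7 libraries and 65.9, 130.1 and 114.4 in siGL2 libraries, and its junctions were not read here. Counting MCL1-207 and MCL1-208 as long gave a difference of 18.5 points, and counting them as short gave 23.1 points. Adding MCL1-203, which carries the second Mcl-1L junction, to the long form left 9.91 points, and the groups then overlapped (38.5, 32.6 and 28.2% in siSlu7 libraries and 28.4, 20.2 and 20.9% in siGL2 libraries). MCL1-201 is 1110 bases long and ends in the annotation before most of the sequence of MCL1-202 (3950 bases) and MCL1-205 (3626 bases), so most long-form counts come from sequence outside the junctions printed above. Reads across the junctions were not counted apart. The test of transcript usage, which 2.9% of 8869 genes passed, gave MCL1 an adjusted p of 0.322 (edgeR, Simes; unadjusted 0.0189). Without siGL2 replicate 1 and siSlu7 replicate 3 the adjusted p was 0.000115, in a fit where 9.36% of genes passed. These libraries were left out after they had been seen to stand apart. MCL1-202 then had 0 and 0 estimated counts in siSlu7 libraries and 169.7 and 72.4 in siGL2 libraries. It met the filter on low counts only through siGL2 libraries, so this p adds no support. With all 6 libraries, the log2 usage change of MCL1-202 was -2.78 and that of MCL1-201 was 0.22.

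**Figure D4:**
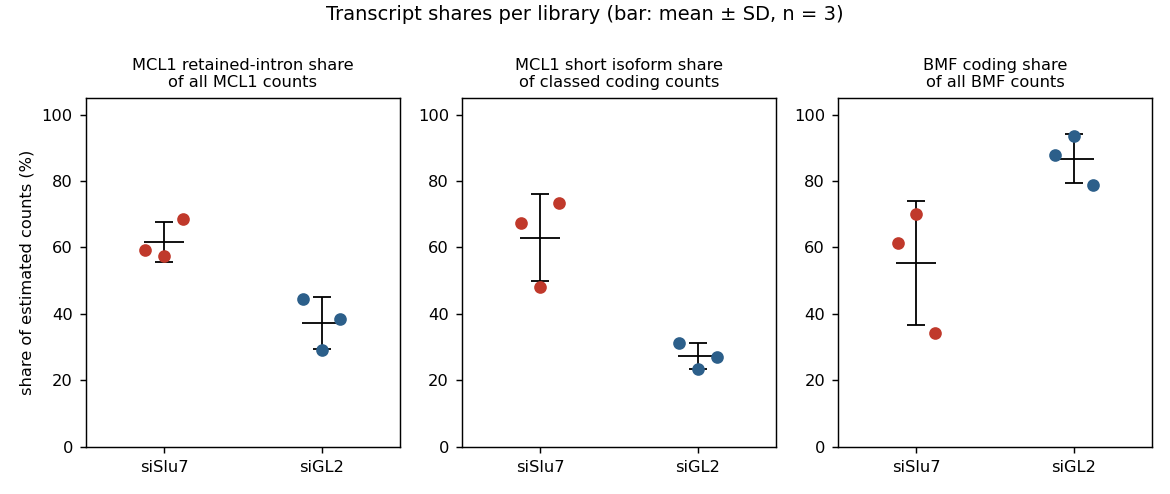
Share of estimated counts per library (%, points; bars are the mean ± SD, n = 3), siSlu7 (red) left of siGL2 (blue): retained-intron share of MCL1, short share of the classed coding MCL1 transcripts, and coding share of BMF. In each panel the groups do not overlap, with siSlu7 higher in the MCL1 panels and lower in the BMF panel. Over all genes compared, the retained-intron share was higher without overlap in 25.4%, and the coding share lower without overlap in 20.7%.

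The transcript with the Bcl-xS junction, BCL2L1-202, was listed at 0 estimated counts in all 6 libraries. The coding transcripts with either Bcl-x junction held 202.6, 262.1 and 80.0 estimated counts in siSlu7 libraries and 216.4, 264.3 and 265.5 in siGL2 libraries. If each of these counts could tell the forms apart, 0 would allow a Bcl-xS share of up to 1.15 to 3.75% in siSlu7 libraries and 1.13 to 1.39% in siGL2 libraries (3 counts of each total, counting error only). Reads across the differing stretch are not given apart in the deposited values, so limits based on such reads would be higher and are not known here. The totals also leave out coding transcripts that hold 49.3, 27.3 and 61.1% of BCL2L1 counts in siSlu7 libraries and 44.3, 45.4 and 51.2% in siGL2 libraries. Of these, BCL2L1-210, BCL2L1-211, BCL2L1-212 and BCL2L1-214 have no entry in GENCODE 29, and BCL2L1-204, BCL2L1-205, BCL2L1-206, BCL2L1-207 and BCL2L1-209 have shorter entries there that hold neither junction as printed. Whether Bcl-xS was present was therefore not settled by these counts.

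The Bcl-xL transcripts varied among replicates. BCL2L1-201 had 112.1, 73.4 and 61.3 estimated counts in siSlu7 libraries and 133.0, 218.0 and 178.6 in siGL2 libraries, a log2 fold change of -0.83 ± 0.31 (SE; unadjusted p = 0.0367, edgeR adjusted p = 0.275). BCL2L1-203, which has the same Bcl-xL junction, had 48.0, 147.7 and 7.6 estimated counts in siSlu7 libraries and 79.1, 46.3 and 68.2 in siGL2 libraries. BCL2L1-208, of 1292 bases and also with the Bcl-xL junction, had 42.5, 41.0 and 11.1 estimated counts in siSlu7 libraries and 4.2, 0 and 18.6 in siGL2 libraries. In TPM the groups overlapped for BCL2L1-201 (2.91 to 4.47 TPM in siSlu7 cells and 3.13 to 4.62 TPM in siGL2 cells), as they did for BCL2L1-203. They did not overlap for BCL2L1-208, at 1.12 to 3.95 TPM in siSlu7 cells and 0 to 1.01 TPM in siGL2 cells (log2 fold change of its counts 2.32 ± 1.22 SE, edgeR adjusted p = 0.412). Its estimated counts did overlap, at 11.1 in siSlu7 replicate 3 and 18.6 in siGL2 replicate 3. The TPM values also carry the median shift of 0.35 in log2(TPM + 1) seen over all tested genes. BCL2L1-207 had 50.6, 31.3 and 0 estimated counts in siSlu7 libraries and 0, 133.9 and 195.3 in siGL2 libraries, at 0 in siSlu7 replicate 3 and siGL2 replicate 1. The other tested transcripts, BCL2L1-205, BCL2L1-213, BCL2L1-214 and BCL2L1-215, had log2 fold changes from -2.21 to -0.30 and adjusted p from 0.420 to 0.928. The transcript with most counts was BCL2L1-201, BCL2L1-203 and BCL2L1-210 in the siSlu7 replicates and BCL2L1-201, BCL2L1-201 and BCL2L1-207 in the siGL2 replicates, so the split between near-identical transcripts is uncertain. Transcript usage of BCL2L1 had an adjusted p of 1 (edgeR, Simes; unadjusted 0.481).

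**Figure D5:**
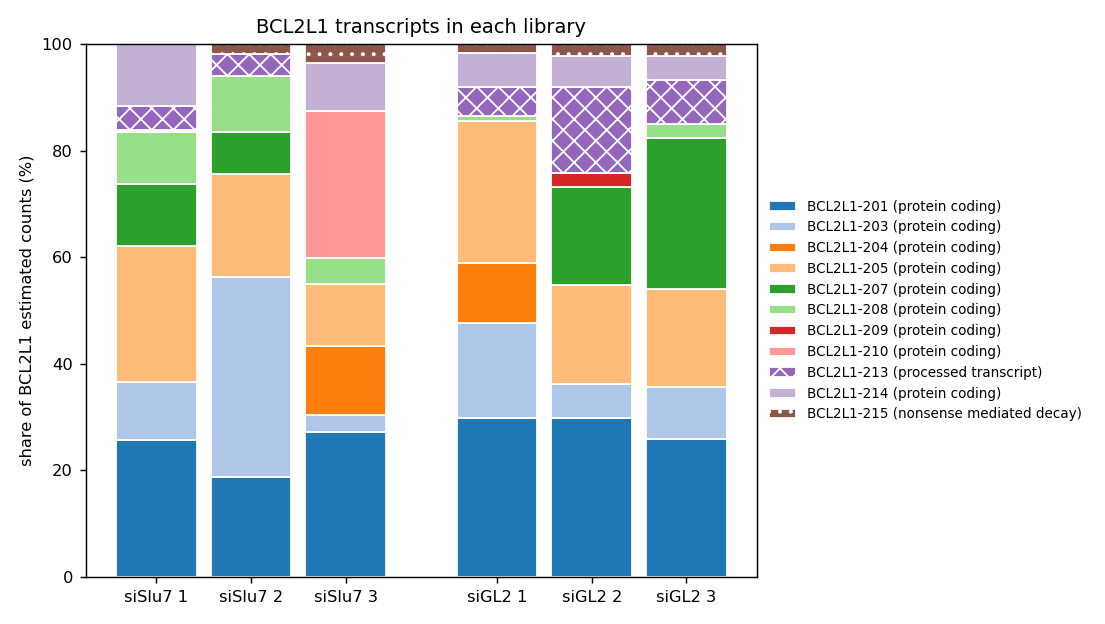
Share of BCL2L1 estimated counts (%, stacked) on each transcript in each library, siSlu7 replicates left of siGL2 replicates; cross-hatched bars are the processed transcript BCL2L1-213 and dotted bars the decay transcript BCL2L1-215. The leading transcript differs between libraries of one group, and BCL2L1-202 (Bcl-xS), listed at 0, has no bar.

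The coding share of BCL2L1 was 95.5, 94.0 and 96.5% in siSlu7 libraries and 92.9, 81.6 and 89.6% in siGL2 libraries. The groups did not overlap (two-sided exact permutation p = 0.1, the smallest possible), with siSlu7 higher by 7.29 percentage points. Over 8604 tested genes with enough counts on both kinds of transcript, the coding share was higher without overlap in 4.04% and lower without overlap in 20.7%, with a median difference of -3.64 points. In all, 6 members could be compared, of which BCL2L1 was higher and MCL1 and BMF were lower, each without overlap. Most non-coding BCL2L1 counts lay on BCL2L1-213, a processed transcript of 1515 bases with 19.5, 16.3 and 0 estimated counts in siSlu7 libraries and 23.9, 117.9 and 56.1 in siGL2 libraries. The class usage test gave BCL2L1 an adjusted p of 0.598 (edgeR, Simes).

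The remaining members had few counts per transcript. BCL2L11-221, a coding transcript of 5224 bases, had 20.1, 36.4 and 8.9 estimated counts in siSlu7 libraries and 7.1, 0 and 0 in siGL2 libraries, with no overlap (log2 fold change 3.49 ± 1.35 SE, unadjusted p = 0.0399, edgeR adjusted p = 0.284). It met the filter on low counts only through the siSlu7 libraries, so these values add no support. BCL2L11-206, of 5098 bases, had 15.7, 0.2 and 18.5 estimated counts in siSlu7 libraries and 13.6, 37.6 and 0 in siGL2 libraries. The long transcript with most counts thus differed from replicate to replicate. BCL2L11-213, a transcript annotated for nonsense-mediated decay, had a log2 fold change of 0.27 ± 0.51 (SE; edgeR adjusted p = 0.841). BCL2L11-202, of 720 bases, had 1.7 to 6.9 estimated counts in siSlu7 libraries and 8.4 to 11.2 in siGL2 libraries and was not tested. The decay class held 35.1, 24.0 and 29.3% of BCL2L11 counts in siSlu7 libraries and 41.0, 31.3 and 38.3% in siGL2 libraries, which overlapped.

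BAD-206, a retained-intron transcript of 552 bases, made up 47.0% of BAD counts over all libraries, and the coding BAD-203 made up 35.6%. Their log2 fold changes were -0.54 ± 0.38 and -0.30 ± 0.44 (SE; edgeR adjusted p = 0.541 and 0.791). The retained-intron share of BAD was 57.5, 53.8 and 40.3% in siSlu7 libraries and 48.4, 49.4 and 39.7% in siGL2 libraries (two-sided exact permutation p = 0.5). For BID this share was 20.9, 40.5 and 52.2% in siSlu7 libraries and 35.5, 15.9 and 8.26% in siGL2 libraries (two-sided exact permutation p = 0.2), on 15 to 30 counts a library. Neither separated the groups. BID counts lay on BID-208 (43.0%), the retained-intron BID-206 (27.5%) and BID-203 (13.4%), none of which had enough counts to be tested. All BAK1 counts in siSlu7 libraries fell on a single transcript that differed between replicates (BAK1-201, BAK1-202 and BAK1-203), so its forms could not be compared. BIK has 1 transcript in these data. BOK-201, the coding transcript, carried 98.0% of BOK counts.

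Of the other genes of the pathway, 6 of 57 tested passed (10.5%, against 13.8% of all genes), leaving splicing factors aside. Among 15 further BCL2 family genes, 12 were tested and none passed (median log2 fold change 0.04, against -0.01 for all genes). The smallest p belonged to BCL2L15, at 5.18 ± 0.51 CPM in siSlu7 cells and 2.60 ± 0.98 CPM in siGL2 cells (log2 fold change 0.99, edgeR adjusted p = 0.0836). BBC3, which encodes the BH3-only protein PUMA, had a log2 fold change of -1.17 (edgeR adjusted p = 0.114). None of 7 tested genes for mitochondrial partners and released proteins passed (median 0.23), with CYCS, the gene of cytochrome c, at 0.98 (edgeR adjusted p = 0.111) and AIFM1 at 0.58 (0.162). None of 11 caspase and adaptor genes passed (median 0.16), with CASP2 at 0.61 (0.0900).

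Of 5 tested inhibitor of apoptosis genes (median log2 fold change 0.09), BIRC3 rose, at 10.1 ± 0.52 CPM in siSlu7 cells and 5.41 ± 0.51 CPM in siGL2 cells (SD, n = 3 each; log2 fold change 0.90, edgeR adjusted p = 0.0231). BIRC3 encodes a ubiquitin ligase that restrains death receptor signals. Of 14 regulators of the stability and place of BCL2 family proteins, 1 rose and 2 fell, with a median log2 fold change of -0.25. USP9X, which removes ubiquitin from MCL1 protein, had 192 ± 25.5 CPM in siSlu7 cells and 326 ± 25.3 CPM in siGL2 cells (SD, n = 3 each; log2 fold change -0.76, edgeR adjusted p = 0.0232). PIM3, of a kinase family that phosphorylates BAD, fell by 1.25 on the log2 scale (edgeR adjusted p = 0.0320), and BAG1, a BCL2-binding co-chaperone, rose by 0.71 (0.0277). Of 8 transcription factors of BH3-only genes (median -0.24), TP73 fell by 1.0 (edgeR adjusted p = 0.0311) and TFAP4 rose by 0.65 (0.0456).

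Of 20 splicing factors that have been reported to shift Bcl-x or Mcl-1 forms, 18 were tested, 5 rose and 1 fell. Over all genes tested, 5.93% were called higher and 7.87% lower. The median log2 fold change of these factors was 0.34, against -0.01 for all genes. The list was chosen with earlier results of these data known, so this comparison is not independent of the data. SRSF7, an SR protein, had 80.2 ± 8.60 CPM in siSlu7 cells and 38.8 ± 5.16 CPM in siGL2 cells (SD, n = 3 each; log2 fold change 1.05, edgeR adjusted p = 0.00969). SRSF2 rose by 0.60 on the log2 scale, SRSF10 by 0.63 and HNRNPA1, which has pseudogenes that can share its reads, by 0.82, with edgeR adjusted p from 0.0276 to 0.0415. RBM10, an RNA-binding protein, fell by 0.74 (edgeR adjusted p = 0.0378). Whether any of these bears on the MCL1 shares was not tested.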

How the data were processed

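TRIzol extraction and a ScriptSeq library kit were used, per the labels' protocols. The submitters' processing notes name kallisto 0.46.1, sleuth 0.30.0, Trimmomatic 0.38 and FastQC 0.11.8, with build GRCh38 but no roles. Per the file headers, the authors deposited estimated counts per transcript, split between transcripts by the quantifier and not normalized, and TPM values computed from those counts and effective lengths. Which GENCODE release and strand setting they used is not given in the sources used here. Reads of antisense genes therefore cannot be told apart, and the error of dividing reads among like transcripts did not enter the tests.

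Of 234485 transcript records per file, 159 Y-linked pseudoautosomal ones were merged with their X copies. Estimated counts were rounded per transcript and summed per gene. Genes, transcripts and usage were tested over the whole table with edgeR 4.0.16 in R 4.3.3 (TMM; filterByExpr with 10 counts in a library and 15 in total; quasi-likelihood test; diffSpliceDGE with Simes p; Benjamini-Hochberg adjustment, threshold 0.05), siSlu7 minus siGL2. Class usage was tested on counts summed into 4 classes (coding, decay, retained intron, other). Shares were compared with an exact permutation test. Depth was 5191452 to 8693977 estimated counts a library, and floors and intervals of shares cover counting error only. DESeq2 1.42.0 and limma 3.58.1 (log2(TPM + 1), pseudocount 1) were alternatives. Scripts were checked on simulated data.

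Isoforms were classed from GENCODE 29, which held 74 of the 89 member transcripts (55 in the same version), 9 of 15 for BCL2L1 and 4 of 8 for MCL1. All 10 members are reported, with the tested transcripts of BCL2L1 and MCL1, transcripts of other members that passed or held 10% of their gene's counts, and of each gene list those past the test (at most 6) or the 2 with the smallest p. Members and lists were chosen with earlier results of these data known. Values of 2 list genes that this rule names are not reported here.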

Additional observations from a re-analysis of the deposited data

How the results depend on the processing

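In the gene test 1 member passed. The count was 2 without a filter or with a stricter one, 5 without siGL2 replicate 1 and siSlu7 replicate 3, 0 with the replicate block, 0 on log2(TPM + 1), 0 with length offsets, and 0 to 3 when 1 library was left out. BOK was among the members in the counts of 2, 3 and 5, and where a filter was used it met it only through siGL2 libraries. Over all genes, 13.8% passed in the main test, 0% with the block, 18.3% on log2(TPM + 1), 4.91% with length offsets and 0 to 25.6% when 1 library was left out, so the 0s under the block and without siSlu7 replicate 2 hold for every gene. Replicate numbers did not pair the samples (same-number r of -0.41, 0.11 and -0.37), and the block gave BMF a log2 fold change of -1.43 (adjusted p = 0.0695). DESeq2 called 2 member transcripts (6.52% of all, against 0%). BMF-202, among them, met the filter on low counts only with the siGL2 libraries. MCL1 was the 1 member with changed transcript usage without those 2 libraries (9.36% of all genes, against 2.9%), and the 1 with changed class usage by limma (8.7%, against 2.26%). The MCL1 short-form difference was 9.91 points with all transcripts that hold a junction, 18.5 or 23.1 with MCL1-207 and MCL1-208 as long or short, and 30.4 to 42.9 when 1 library was left out. The retained-intron difference was 12.9 points by TPM and 20.3 to 28.0 when 1 library was left out. Directions turned for BID, BIK, BCL2L11, BCL2L1 and BAD. The log2 fold change of BID became 0.0031 (stricter filter), 0.0268 (replicate block), 0.0169 (log2(TPM + 1)) and 0.18 (GC and length offsets), and ran from -0.21 to 0.24 when 1 library was left out, above 0 without siSlu7 replicate 1 or 2 or siGL2 replicate 2. That of BIK became 0.12 on log2(TPM + 1), and ran from -0.91 to 0.13 when 1 library was left out, above 0 without siSlu7 replicate 2 or siGL2 replicate 2. That of BCL2L11 became -0.0399 with length offsets, and ran from -0.042 to 0.41 when 1 library was left out, under 0 without siGL2 replicate 1. That of BCL2L1 became 0.0846 on log2(TPM + 1), and that of BAD 0.078 with GC and length offsets. Of the comparisons of single genes with an alternative, 121 kept direction and side of the threshold, 13 lost and 4 gained a call, and 14 changed sign; none of these causes was tested. With 3 libraries a group the exact test of a share cannot go below 0.1, and with 3 to 95 counts a library BOK, BIK, BID and BMF set the limit of depth.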
